A study of Mus musculus with 8 samples.

Results

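The genes described here are the 77 rows of the expression tables whose symbol names a mitochondrial ribosomal protein, that is, begins with Mrpl or Mrps followed by a number. They were chosen by symbol alone, from 23997 symbols measured in every library. By symbol, 48 belong to the large subunit (Mrpl) and 29 to the small subunit (Mrps). Expression was given in FPKM, fragment counts corrected for transcript length and library size. All 77 members averaged at least 1 FPKM across the 6 libraries, the filter that 12537 genes in all passed.

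Poly(A) RNA was sequenced from mouse neural stem/precursor cells, which divide in the embryonic brain and produce its neurons and glia. The 3 Nfia libraries came from cells transduced with Nfia, whose product is a transcription factor of the NFI (nuclear factor I) family, and the 3 control libraries from control cells. All cells were primary cultures from the telencephalon of ICR mouse embryos (E11.5, though the stage label gives E11), were grown with basic fibroblast growth factor (bFGF) at 10 ng/mL, and were taken 3 days after transduction. The labels do not say which vector carried Nfia, what the control cells received, or whether libraries of 1 group stem from separate cultures. The p-values therefore rest on the spread among the libraries, and that spread may be technical.

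Mitochondria keep their own ribosome, the mitoribosome, which translates the few mRNAs of the mitochondrial genome into core subunits of the respiratory chain and the ATP synthase. Its RNAs are made inside the organelle, whereas every one of its proteins is encoded in the nucleus, translated in the cytosol and imported. Some of these proteins descend from bacterial ribosomal proteins and others were added in mitochondria. In the developing brain, neural progenitors rely more on glycolysis and neurons more on oxidative phosphorylation, which needs the products of this ribosome.

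In total, the libraries held 474010 to 511700 FPKM, and their depth relative to the control 1 library lay between 0.760 and 1.11. The absolute depth is unknown. Nfia itself had 69.0, 85.6 and 104 FPKM in the Nfia-transduced libraries and 19.8, 23.9 and 22.2 FPKM in the control libraries, and its log2 difference was 1.91 (SE 0.14, limma adjusted p = 0.000413). Of 8 radial glia markers, 4 were called higher and 1 lower with Nfia, and their summed level was 5409.6 to 6482 FPKM with Nfia and 5441 to 5918 FPKM in controls. Of 8 neuron markers, 7 were called lower with Nfia, with summed levels of 1035 to 1063 FPKM with Nfia and 1654 to 1732 FPKM in controls, and none was at 0. Of all 12537 genes tested, 16.1% were called higher and 15.1% lower (limma adjusted p under 0.05). Fewer cells of a type and less RNA per cell cannot be told apart in bulk samples, and the part of this shift in neuron markers in the differences below was not tested. Markers of other cell types were low. Microglia markers summed to 1.55 to 2.74 FPKM with Nfia and 2.72 to 3.02 FPKM in controls, and endothelial markers to 2.52 to 3.69 FPKM with Nfia and 4.15 to 5.31 FPKM in controls, with 1 member called lower (Cldn5). Mural and fibroblast markers summed to 9.78, 20.8 and 19.8 FPKM with Nfia and 11.03, 21.9 and 20.8 FPKM in controls, lowest in library 1 of both groups. Of these, 1 was called lower (Rgs5). Erythroid markers summed to 0.560 to 0.923 FPKM with Nfia and 0.580 to 1.498 FPKM in controls, with 1 of 7 at 0 in every library.

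In Nfia-transduced cells the mitochondrial ribosomal protein mRNAs were near their control levels. Their differences were small and mostly upward: 59 of the 77 had a log2 difference above 0, yet no gene differed by 0.5 or more, a size that 1251 of all 12537 genes tested reached. The log2 difference is the mean of log2(FPKM + 1) with Nfia minus that in controls. Its median over the members was 0.09, with quartiles of 0.007 and 0.142 and extremes of -0.252 (Mrps6) and 0.326 (Mrps18b). The median over all genes tested was 0.008, with quartiles of -0.147 and 0.16.

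At an adjusted p under 0.05 by limma, 8 members were higher with Nfia and 1 was lower. These are 10.4% and 1.30% of the members, beside 16.1% called higher and 15.1% called lower across all genes tested. The members called higher were Mrps18b, Mrps27, Mrps7 and Mrps36 of the small-subunit symbols and Mrpl51, Mrpl15, Mrpl38 and Mrpl4 of the large-subunit symbols. Mrps6 was the member called lower. All 3 Nfia libraries lay above all 3 control libraries for 12 members (15.6%, beside 24.7% of all genes) and below them for 3 members (3.90%, beside 22.9%). For the other 62 the groups overlapped. At an unadjusted p under 0.05 the counts were 14 higher (18.2%, beside 22.7% of all genes) and 2 lower (2.60%, beside 20.7%). The 95% interval of the difference lay within 0.5 of 0 for 74 members (96.1%) and for 74.9% of all genes. The intervals of Mrpl54, Mrps28 and Mrps36 reached further.

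The counts depended on single libraries. Without the Nfia 3 library 13 members were called higher, whereas 2 were without Nfia 1, 2 without Nfia 2, 5 without control 1, 5 without control 2 and 3 without control 3. The median of the members stayed above 0 in each of these fits, between 0.053 and 0.137. With upper-quartile scaling the count was 5 higher and 2 lower, and the median was 0.059, beside -0.019 for all genes.

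**Figure D1:**
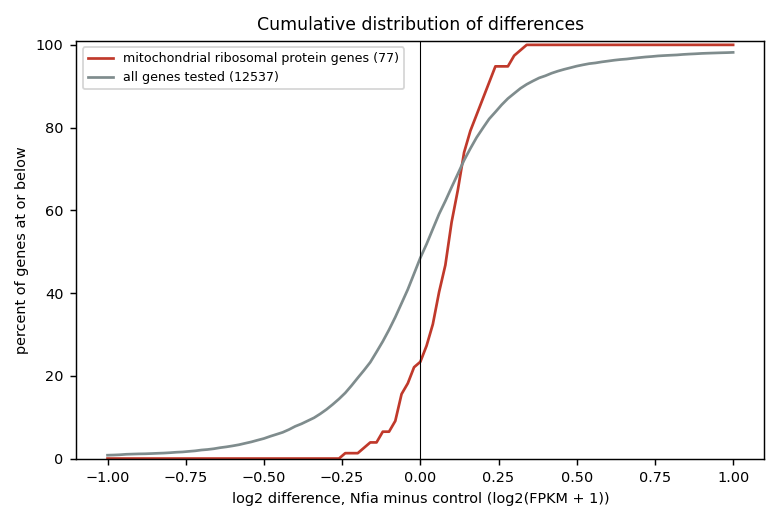
Cumulative percent of genes (vertical axis) at or below a given log2 difference, Nfia minus control (horizontal axis, log2(FPKM + 1)), for the 77 mitochondrial ribosomal protein genes and for all 12537 genes tested. The members' line climbs from 0 to 100% between -0.252 and 0.326, inside the wider range of all genes, and crosses their median at 0.09, right of the 0.008 of all genes.

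**Figure D2:**
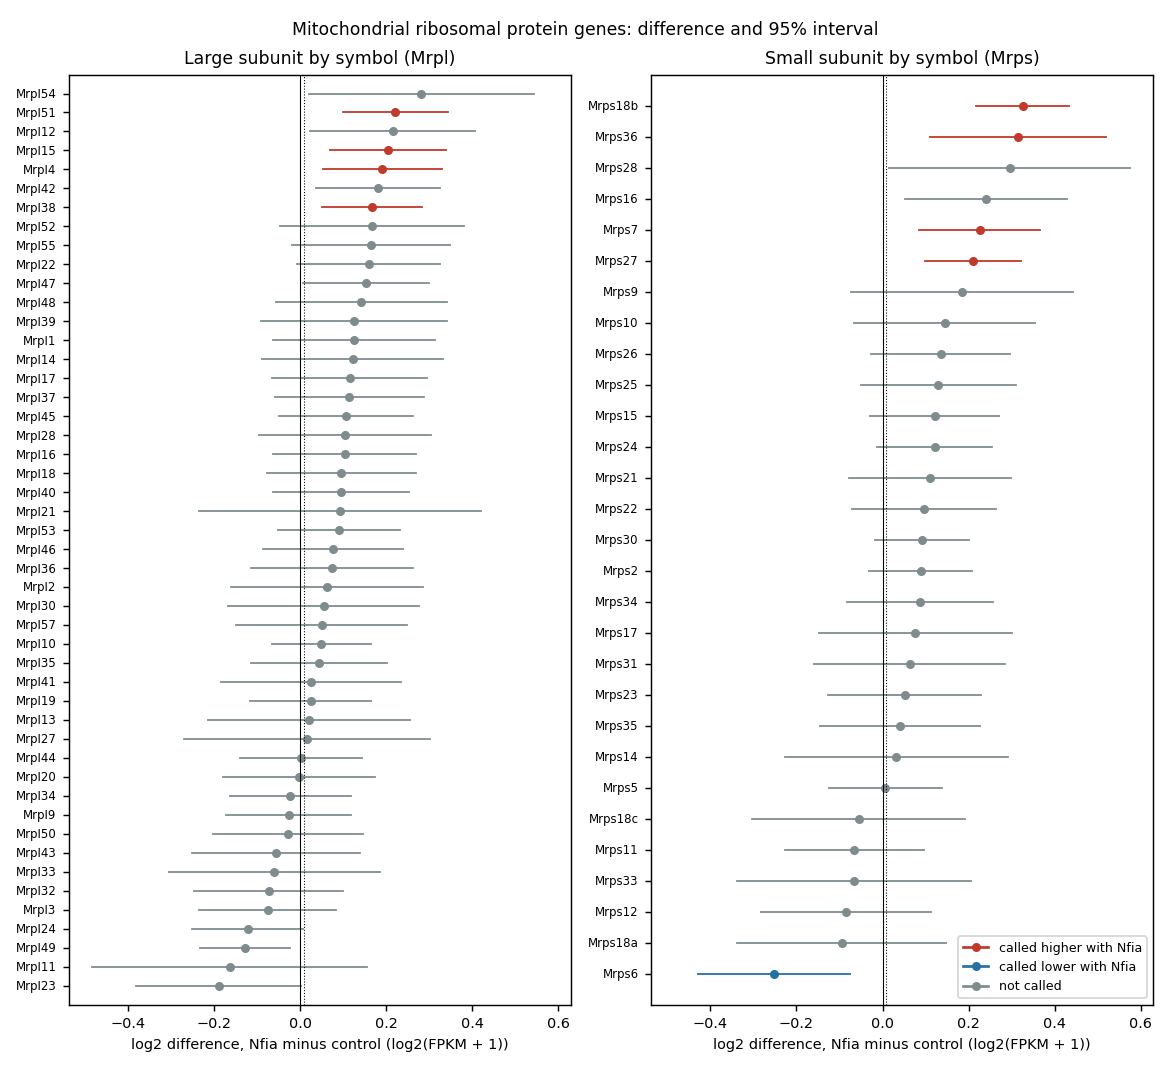
Log2 difference, Nfia minus control (log2(FPKM + 1)), with its 95% interval from limma for each member, in the panel of the large subunit symbols and the panel of the small subunit symbols. Red points were called higher with Nfia, the blue point (Mrps6) was called lower and grey points were not called; the dotted line is the median of all genes tested, 0.008. Most points lie right of 0, with intervals that include 0.

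Mrps18b had the smallest adjusted p and the largest difference of the members. It encodes 1 of 3 mammalian relatives of the bacterial protein S18, at a position of the small subunit that bacterial ribosomes lack. Mrps18b had 34.2, 31.7 and 31.5 FPKM in the Nfia-transduced libraries and 26.0, 25.5 and 25.6 FPKM in the control libraries. Each Nfia library was above each control library, and the control values lay close together. Mean FPKM was 32.5 ± 1.499 with Nfia and 25.7 ± 0.256 in controls (SD, n = 3 each), a 1.26-fold ratio (log2 difference 0.33, SE 0.045, adjusted p = 0.00296). This call held in all 16 alternative fits, with adjusted p between 0.00117 and 0.0148.

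The relatives of Mrps18b were not called. Mrps18c, the relative that keeps the S18 position in the small subunit, had 88.9, 78.8 and 71.8 FPKM with Nfia and 92.3, 82.8 and 73.9 FPKM in controls. Mrps18a, which despite its symbol sits in the large subunit in structures of mammalian mitoribosomes, had 57.0, 49.4 and 54.4 FPKM with Nfia and 57.2, 65.4 and 50.02 FPKM in controls. Both pairs of groups overlapped. Their log2 differences were -0.06 (95% interval -0.30 to 0.19, adjusted p = 0.713) for Mrps18c and -0.09 (95% interval -0.34 to 0.15, adjusted p = 0.515) for Mrps18a. Within a library, the log2 ratio of Mrps18b to Mrps18a was -0.72, -0.62 and -0.77 with Nfia and -1.11, -1.32 and -0.94 in controls, a difference of 0.42 between the group means. The same ratio to Mrps18c differed by 0.38. In both cases the ratios of the groups did not overlap, and an exact permutation test gave the two-sided p of 0.1 that is the smallest 3 against 3 libraries allow. These ratios reuse the Mrps18b values, whose groups were already apart, and are not separate evidence for its call.

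Of the other small-subunit symbols, Mrps27, Mrps7 and Mrps36 were higher with Nfia. Mrps27, a pentatricopeptide-repeat protein found in mitochondrial ribosomes and not in bacterial ones, had 25.7, 24.9 and 23.6 FPKM in the Nfia-transduced libraries and 21.8, 20.8 and 21.1 FPKM in the control libraries (log2 difference 0.21, SE 0.047, adjusted p = 0.0162). Mrps7, the relative of bacterial S7 in the head of the small subunit, had 55.2, 56.1 and 53.9 FPKM in the Nfia-transduced libraries and 46.9, 50.6 and 43.6 FPKM in the control libraries (log2 difference 0.23, SE 0.059, adjusted p = 0.0273). In both genes the lowest Nfia library was above the highest control library. Mrps36 is named as a ribosomal protein but is known as a subunit of the 2-oxoglutarate dehydrogenase complex of the citric acid cycle. It had 17.2, 20.0 and 17.8 FPKM in the Nfia-transduced libraries and 15.1, 15.6 and 12.9 FPKM in the control libraries (log2 difference 0.31, SE 0.086, adjusted p = 0.0320), and its groups did not overlap either. Leaving out 1 library ended the Mrps27 call without Nfia 1, Nfia 2, control 2 or control 3 (adjusted p of 0.05003 to 0.0601). The Mrps7 call ended without Nfia 1, Nfia 2, control 1 or control 3 (0.0664 to 0.0885), and that of Mrps36 without Nfia 2, Nfia 3, control 1 or control 3 (0.0572 to 0.0956) and without the filter on low values.

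In the large subunit, 4 genes were higher with Nfia. Mrpl51, a mitochondria-specific protein, had 25.3, 24.1 and 23.3 FPKM in the Nfia-transduced libraries and 19.7, 20.8 and 21.5 FPKM in the control libraries (log2 difference 0.22, SE 0.051, adjusted p = 0.0181). Mrpl15, a relative of bacterial L15, had 19.7, 20.4 and 19.2 FPKM in the Nfia-transduced libraries and 16.6, 18.3 and 16.3 FPKM in the control libraries (log2 difference 0.20, SE 0.056, adjusted p = 0.0336). The lowest Nfia library of each exceeded its highest control library. Mrpl38, a mitochondria-specific protein of the central protuberance, had 45.4, 47.7 and 44.6 FPKM in the Nfia-transduced libraries and 41.3, 42.2 and 38.8 FPKM in the control libraries (log2 difference 0.17, SE 0.049, adjusted p = 0.0404). Mrpl4, a relative of the bacterial L4 that lines the exit tunnel, had 40.5, 35.3 and 38.1 FPKM in the Nfia-transduced libraries and 33.1, 34.1 and 32.2 FPKM in the control libraries (log2 difference 0.19, SE 0.058, adjusted p = 0.0464). These genes too had no overlap between groups, but the gap for Mrpl4 was narrow, between Nfia 2 and control 2. The Mrpl51 call ended without Nfia 1, Nfia 2 or control 1 (adjusted p of 0.0542 to 0.0570), and the Mrpl15 call without any library but control 2 (0.0511 to 0.110). The Mrpl38 call ended without any 1 of the 6 libraries (0.0505 to 0.133), and the Mrpl4 call without any but Nfia 2 (0.0732 to 0.132). Upper-quartile scaling ended the calls of Mrpl15, Mrpl38 and Mrpl4, and quantile normalization or no variance trend ended those of Mrpl38 and Mrpl4. The Mrpl4 call also ended with no filter and with library quality weights.

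Mrps6 was the most abundant member and the one called lower. It is the relative of bacterial S6 in the platform of the small subunit. Mrps6 had 205, 205 and 189 FPKM in the Nfia-transduced libraries and 241, 257 and 217 FPKM in the control libraries. Each Nfia library was below each control library. Mean FPKM was 199.6 ± 9.19 with Nfia and 238 ± 20.4 in controls (SD, n = 3 each), a decrease of 16.2% (log2 difference -0.25, SE 0.074, adjusted p = 0.0405). The call ended without any library but control 3 (adjusted p of 0.0674 to 0.106), without the filter on low values and without a variance trend. In the RefSeq annotation of GRCm38.p6, Mrps6 (chr16:92058336-92112227) shares 29138 bases of its span, on the same strand, with Slc5a3 (chr16:92058322-92087473), a transporter of myo-inositol, so reads from shared sequence could be assigned to either. Slc5a3 had 24.8, 25.6 and 29.3 FPKM with Nfia and 26.6, 27.1 and 30.5 FPKM in controls (log2 difference -0.08, SE 0.080, adjusted p = 0.492), and was not called. The within-library log2 ratio of Mrps6 to Slc5a3 averaged 2.87 with Nfia and 3.04 in controls (exact permutation p = 0.4), and its groups overlapped.

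**Figure D3:**
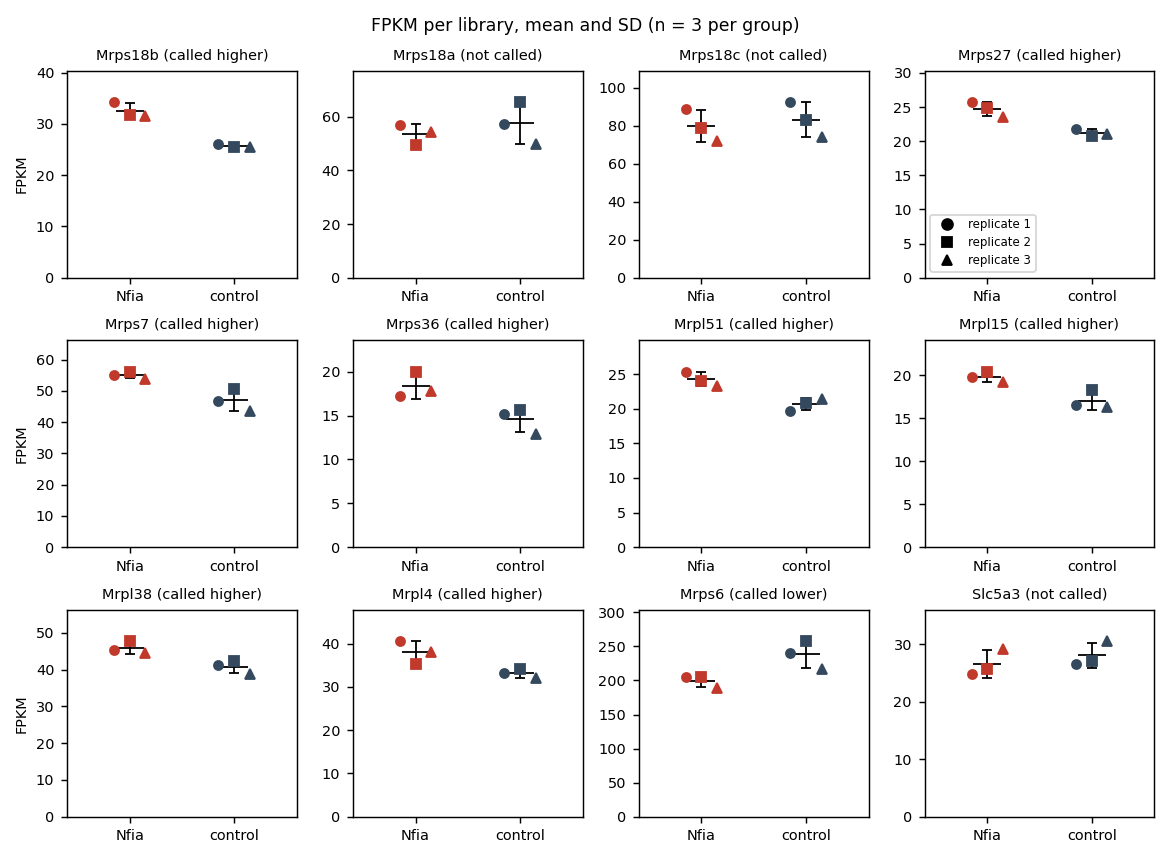
FPKM in each library (vertical axes from 0, each gene on its own scale) for the 9 called members, the uncalled relatives Mrps18a and Mrps18c, and Slc5a3; Nfia libraries are left and control libraries right, with the mean as a line and the SD as error bars (n = 3 each). The groups of the called members are apart, with Mrps18b at 31.5 to 34.2 FPKM with Nfia and 25.5 to 26.0 FPKM in controls, while those of Mrps18a, Mrps18c and Slc5a3 overlap.

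The DNA before the start of 4 called members is shown because known activators of nuclear genes for mitochondrial proteins bind near gene starts, and because Mrps18b held its call in every alternative and Mrps6 is the member that moved down. The stretches are from RefSeq (GRCm38.p6) and run 5′ to 3′ on the strand of the gene, ending at the base before the start in the promoter table. They are 250 bases for Mrps18b (chr17:35916441-35916690, minus strand) and 120 bases for Mrps27 (chr13:99344666-99344785, plus), Mrpl51 (chr6:125192080-125192199, plus) and Mrps6 (chr16:92058216-92058335, plus). Capitals mark matches, on either strand, to the core of the NRF1 motif (GCATGCGC), to the ETS or GABP motif (CCGGAAG), to the YY1 motif (AAGATGGCG), to the GC box bound by SP factors (GGGCGGGG) and to 1 arm of the NFI motif (TTGGCA).
Mrps18b: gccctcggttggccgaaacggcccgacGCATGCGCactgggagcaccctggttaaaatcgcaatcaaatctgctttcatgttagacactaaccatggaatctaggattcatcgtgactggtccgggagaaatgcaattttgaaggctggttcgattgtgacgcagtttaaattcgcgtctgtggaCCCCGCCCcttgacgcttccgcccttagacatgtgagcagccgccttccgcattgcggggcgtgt
Mrps27: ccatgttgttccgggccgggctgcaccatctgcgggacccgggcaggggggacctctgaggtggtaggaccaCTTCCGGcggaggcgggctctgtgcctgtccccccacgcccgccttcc
Mrpl51: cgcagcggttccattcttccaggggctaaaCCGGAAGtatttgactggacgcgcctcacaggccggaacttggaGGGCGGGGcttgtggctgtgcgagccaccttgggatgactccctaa
Mrps6: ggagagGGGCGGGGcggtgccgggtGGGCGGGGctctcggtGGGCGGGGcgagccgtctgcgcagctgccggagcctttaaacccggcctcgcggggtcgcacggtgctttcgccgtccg

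Mrps18b thus carried an NRF1 match and a GC box on the reverse strand, and its window also held an NRF1 match 29 bases and an ETS match 44 bases after the start. Mrps27 carried an ETS match, with a YY1 match 15 bases after the start. Mrpl51 carried an ETS match and a GC box, and Mrps6 held 3 GC boxes with none of the other motifs. No match to the NFI arm as searched (TTGGCA) fell in these 4 windows. The Mrps18b stretch does hold TTGGC, the shorter arm used for the full NFI palindrome below, followed by a C. A match is a description of the letters and not a bound site.

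The promoter table matched 68 of the 77 members, with 74 promoters of 300 bases each (250 before and 50 after the start), among 32851 promoters of the genome and 11836 of the genes tested. The ETS or GABP motif stood in 25 member promoters (33.8%), in 17.3% of the promoters of genes tested and in 8.86% of all promoters. The NRF1 core stood in 8 (10.8%), beside 5.31% and 2.71%. The YY1 motif stood in 8 (10.8%), beside 3.008% and 1.40%. At least 1 of these 3 motifs was present in 35 of the 74. The GC box was present in 18 (24.3%), beside 33.2% of the promoters of genes tested and 17.6% of all. The NFI arm TTGGCA was present in 8 (10.8%), beside 10.9% and 14.1%. The full NFI palindrome (TTGGC and GCCAA 5 bases apart) was present in 0 of the 74, beside 3 promoters of genes tested and 12 of all. Matches of different motifs overlapped in 0 member promoters.

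Medians of members with and without a motif were close, and their difference was not tested. The median log2 difference was 0.092 for the 25 members with an ETS match and 0.076 for the 43 without, 0.082 for the 8 with an NRF1 match and 0.089 for the 60 without, and 0.094 for the 8 with a YY1 match and 0.089 for the 60 without. For the GC box it was 0.105 in 16 members with it and 0.075 in 52 without. Of the 9 called members, 6 have a promoter in the table. The GC box stood in 5 of those 6, beside 24.3% of member promoters and 33.2% of promoters of genes tested. The ETS motif stood in 3, beside 33.8% and 17.3%. The NRF1 core stood in 1, the YY1 motif in 1 and the NFI arm TTGGCA in 0. The 6 include Mrps6, which was called lower, and a link between a motif and a call was not tested.

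Several members with large differences missed the threshold. Among the small-subunit symbols, Mrps28, classed with bacterial S1 in structures, had 47.0, 47.9 and 38.6 FPKM in the Nfia-transduced libraries and 41.7, 34.5 and 32.1 FPKM in the control libraries (log2 difference 0.30, SE 0.12, adjusted p = 0.1003). In the large subunit, Mrpl54, a mitochondria-specific protein, had 78.3, 76.5 and 74.5 FPKM in the Nfia-transduced libraries and 75.1, 54.6 and 60.1 FPKM in the control libraries (log2 difference 0.28, SE 0.11, adjusted p = 0.0956). In both genes 1 control library reached the range of the Nfia libraries, control 1. Mrpl12, the relative of the bacterial stalk protein L7/L12 that is also known to bind the mitochondrial RNA polymerase, had 120.4, 125 and 101.6 FPKM in the Nfia-transduced libraries and 103, 97.1 and 97.7 FPKM in the control libraries (log2 difference 0.21, SE 0.081, adjusted p = 0.0859). Here Nfia 3 lay just below the highest control library. Mrpl42, a mitochondria-specific protein and one of the most abundant members, had 132, 123 and 118 FPKM in the Nfia-transduced libraries and 116, 106 and 106 FPKM in the control libraries, without overlap (log2 difference 0.18, SE 0.060, adjusted p = 0.0611).

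Fewer members were lower, and their differences were smaller. Mrpl23, a relative of the bacterial L23 at the exit of the tunnel, had 16.1, 15.4 and 13.9 FPKM in the Nfia-transduced libraries and 17.8, 18.8 and 15.7 FPKM in the control libraries (log2 difference -0.19, SE 0.081, adjusted p = 0.119). Mrpl11, a relative of the bacterial L11 at the base of the stalk, had 23.2, 19.4 and 15.7 FPKM in the Nfia-transduced libraries and 23.8, 20.4 and 20.8 FPKM in the control libraries (log2 difference -0.16, SE 0.13, adjusted p = 0.388). In both the groups overlapped, and for Mrpl11 the Nfia libraries spread widely. Mrpl49, a mitochondria-specific protein, had 34.6, 33.7 and 33.4 FPKM in the Nfia-transduced libraries and 36.9, 38.8 and 35.9 FPKM in the control libraries (log2 difference -0.13, SE 0.044, adjusted p = 0.0649), with all Nfia libraries below all control libraries. Mrps12, a relative of the bacterial S12 at the decoding centre, had 46.4, 45.9 and 38.2 FPKM with Nfia and 48.9, 45.1 and 44.2 FPKM in controls (log2 difference -0.08, SE 0.083, adjusted p = 0.475). Mrps12 overlapped between groups.

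Levels differed far more between members than between groups. In FPKM, which is scaled by transcript length, mean levels over the 6 libraries spanned from 9.28 (Mrps25) to 219 (Mrps6), a 23.6-fold range, with a median of 40.3, beside 14.7 for all genes tested. After Mrps6 the highest were Mrpl52 at 191, Mrps21 at 151, Mrpl20 at 143, Mrpl42 at 117 and Mrpl30 at 117. The 10 highest members held 35.0% of the members' summed FPKM. These are transcript levels of parts that a complete mitoribosome mostly contains in equal numbers. The order of the levels was nearly the same with Nfia and in controls (Spearman's rho 0.985 across 77 genes, which share their libraries and are not independent).

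Among the most abundant members other than Mrps6, none was called. Mrpl52, a mitochondria-specific large-subunit protein, had 217, 215 and 177 FPKM in the Nfia-transduced libraries and 179, 190.4 and 171 FPKM in the control libraries (log2 difference 0.17, SE 0.090, adjusted p = 0.203). Mrps21, a relative of bacterial S21, had 167, 160.1 and 144 FPKM with Nfia and 143, 158 and 135 FPKM in controls (log2 difference 0.11, SE 0.079, adjusted p = 0.333). Their groups overlapped, as did those of Mrpl20, a relative of bacterial L20, with 153, 149 and 127 FPKM with Nfia and 142, 142 and 144 FPKM in controls and an adjusted p of 0.979. At the other end, Mrps25 (mitochondria-specific), Mrpl19 (a relative of bacterial L19), Mrpl1 (a relative of the L1 of the bacterial stalk) and Mrps10 (a relative of bacterial S10) were the least abundant of their symbols. Mrps25 had 9.97, 10.2 and 9.07 FPKM with Nfia and 9.73, 8.52 and 8.22 FPKM in controls (log2 difference 0.13, SE 0.075, adjusted p = 0.233), and Mrpl19 had 11.1, 10.8 and 9.87 FPKM with Nfia and 10.8, 10.3 and 10.1 FPKM in controls (log2 difference 0.02, SE 0.059, adjusted p = 0.779). Mrpl1 had 12.8, 11.04 and 11.8 FPKM with Nfia and 11.6, 9.75 and 11.2 FPKM in controls (log2 difference 0.12, SE 0.079, adjusted p = 0.271), and Mrps10 had 17.2, 16.8 and 14.8 FPKM with Nfia and 16.1, 14.7 and 13.1 FPKM in controls (log2 difference 0.14, SE 0.088, adjusted p = 0.254). None of these 4 was called and each overlapped between groups.

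The called members were spread over both subunits. Of the 48 large-subunit symbols 4 were called higher (8.33%) and 0 lower, and their median log2 difference was 0.083. Of the 29 small-subunit symbols 4 were called higher (13.8%) and 1 lower (3.45%), with a median of 0.092. All of these shares lie below the 16.1% called higher and 15.1% called lower across all genes tested. At an unadjusted p under 0.05 in limma, 8 Mrpl genes were higher (16.7%) and 1 was lower (2.08%). The counts for Mrps genes were 6 higher (20.7%) and 1 lower (3.45%). Of all genes tested, 22.7% were higher and 20.7% lower at that threshold. In mammalian structures Mrps18a and Mrps30 are parts of the large subunit and Mrps36 is in neither. Placed so, 4 of 50 large-subunit genes were higher and 0 lower (median 0.083), and 3 of 26 small-subunit genes were higher and 1 lower (median 0.092). Mrps30 had 38.4, 35.8 and 36.1 FPKM with Nfia and 35.6, 33.8 and 33.9 FPKM in controls, with all Nfia libraries above all control libraries but no call (log2 difference 0.09, SE 0.045, adjusted p = 0.169). The difference between the subunits was not tested.

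Proteins that take the position of a bacterial ribosomal protein in structures (conserved) and those at positions found in mitoribosomes (mitochondria-specific) also had close medians, and this difference was not tested. Mrps18a and Mrps18b, though relatives of S18 in sequence, were counted as mitochondria-specific by position. Of the 46 conserved members, 3 were called higher (6.52%) and 1 lower (2.17%), with a median of 0.075. Across all genes tested, 16.1% were called higher and 15.1% lower. Of the 30 mitochondria-specific members, 4 were called higher (13.3%) and 0 lower, with a median of 0.093. At an unadjusted p under 0.05 in limma, 1 of these was lower (3.33%, beside 20.7% of all genes tested). Mrps36 was in neither class. The 3 higher conserved members were Mrps7, Mrpl15 and Mrpl4, and the 4 higher mitochondria-specific members were Mrps18b, Mrps27, Mrpl51 and Mrpl38.

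The members moved together between libraries of the same group. Their summed level was 4207, 4039.9 and 3664 FPKM in the Nfia libraries and 3929, 3864 and 3631 FPKM in the control libraries, or 0.766% to 0.822% of a library's total. The Nfia 3 library fell inside the control range. The mean sum was 3970.2 ± 278 FPKM with Nfia and 3808 ± 157 FPKM in controls (SD, n = 3 each), a difference smaller than the SD of the Nfia libraries. Nfia 3 was the lowest Nfia library for 62 of the 77 members (80.5%, beside 34.8% of all genes tested), and control 3 the lowest control library for 55 (71.4%, beside 33.3%). Nfia 1 was the highest Nfia library for 57 members (74.0%, beside 36.3% of all genes tested), and control 1 the highest control library for 42 (54.5%, beside 36.2%). The summed Mrpl level divided by the summed Mrps level was 1.81, 1.79 and 1.74 with Nfia and 1.73, 1.71 and 1.77 in controls, and these groups overlapped.

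Cytosolic ribosomal protein genes ran the same way across libraries. The median deviation of a mitochondrial ribosomal protein gene from its 6-library mean was 0.12, 0.064 and -0.08 on the log2 scale in the Nfia libraries and 0.021, -0.013 and -0.097 in the control libraries. For 78 cytosolic ribosomal protein genes it was 0.2, 0.128 and -0.093 with Nfia and -0.034, -0.049 and -0.157 in controls. The median of all genes tested lay within 0.01 of 0 in every library. Nfia 3 was the lowest Nfia library for 75 of the 78 cytosolic genes, and control 3 the lowest control library for 59. Nfia 3 was also the library of least relative depth, at 0.760 of control 1, whereas control 3 was at 0.912. Summed radial glia markers had 6482, 5924 and 5409.6 FPKM in the Nfia libraries and 5892, 5918 and 5441 FPKM in the control libraries, again lowest in Nfia 3 and control 3. Most of this sum was Fabp7 and Vim. Fabp7 alone had 3399, 2994 and 2479 FPKM with Nfia and 3608, 3458 and 3211 FPKM in controls. The single markers did not share 1 order: Nes and Prom1 were highest in Nfia 3 among the Nfia libraries, whereas Sox2 and Pax6 were lowest there. The part of depth or of cell composition in this pattern was not tested.

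**Figure D4:**
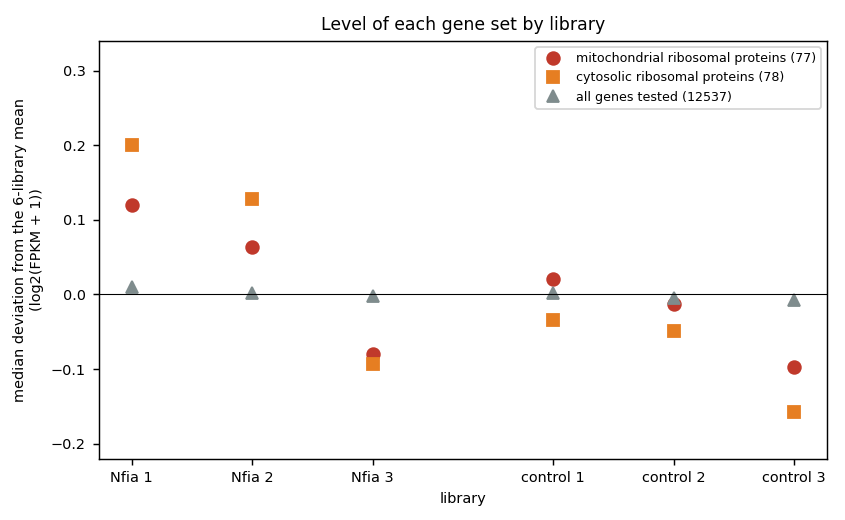
Median deviation of each gene set from its 6-library mean (vertical axis, log2(FPKM + 1)) in each library, for the 77 mitochondrial and 78 cytosolic ribosomal protein genes and all 12537 genes tested. Both ribosomal sets are lowest in library 3 of each group (Nfia 3 at -0.08 and -0.093, control 3 at -0.097 and -0.157) while all genes stay near 0.

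The members lie on 17 chromosomes, with at most 10 on 1 chromosome (chromosome 11). Of the called members, Mrps18b is at chr17:35910380-35916440, Mrps27 at chr13:99344767-99415562, Mrps7 at chr11:115604140-115608036 and Mrps36 at chr13:100735940-100744659 (gene spans, GRCm38.p6). Mrpl51 is at chr6:125192200-125194392, Mrpl15 at chr1:4773198-4785750, Mrpl38 at chr11:116131817-116138868 and Mrpl4 at chr9:21001252-21008839. Of the 77 spans, 25 overlap that of another gene, and 18 of the 30 overlaps are on opposite strands. Whether the deposited values used strand is not given in the sources used here, so reads in overlapping stretches may be shared. Among the called members, besides Mrps6, this concerns Mrps7 (with Gga3 and Mif4gd), Mrps18b (141 bases with the non-coding Gm16279) and Mrps27 (with the non-coding 6430562O15Rik).

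Many members start back to back with another gene. A divergent start within 1000 bases was found for 26 of the 68 members in the promoter table (38.2%), beside 20.4% of genes tested and 12.2% of all genes in the table. Of the 26 partner entries 23 were tested, of which 4 were called higher and 1 lower, beside 16.1% higher and 15.1% lower of all genes tested. Mrpl46 and Mrps11 are each other's partner, 42 bases apart, and were not called, with log2 differences of 0.08 and -0.07. In 1 pair both genes were called: Mrpl51 and Ncapd2, a condensin subunit gene 614 bases away (log2 difference 0.24, limma adjusted p = 0.0170). Mrps18b starts 756 bases from Ppp1r10, a regulatory subunit of protein phosphatase 1, which was not called (log2 difference -0.03, adjusted p = 0.779).

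Among the lists of genes related to the mitoribosome, the largest differences were those of Myc, Polg, Pprc1 and Ppargc1a, all higher with Nfia. In these lists 33 genes were called by limma, 30 higher and 3 lower, and 14 of these calls held in every alternative. Pooled counts are no measure of change by themselves, since 16.1% of all genes tested were called higher and 15.1% lower. The shares of single lists are given below. Each of the other 19 ended without 3 to 5 of the single libraries, with adjusted p reaching 0.0601 to 0.158. Mitoribosome subunits under other names (7 genes, Mrpl57 counted in both) had 0 calls by limma in either direction and a median log2 difference of 0.107, with all 7 above 0. At an unadjusted p under 0.05 in limma, 4 of them were higher (57.1%, beside 22.7% of all genes tested) and 0 lower (beside 20.7%). Dap3, a small-subunit GTP-binding protein, had 25.2, 24.2 and 24.1 FPKM with Nfia and 23.6, 21.3 and 21.0 FPKM in controls (log2 difference 0.16, SE 0.054, adjusted p = 0.0710).

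Counts of calls in each list are given beside the 16.1% higher and 15.1% lower of all genes tested. Of 14 mitochondrial translation factors, 2 were higher (14.3%) and 0 lower (median 0.030): the elongation factors Tufm at 0.19 (adjusted p = 0.0191) and Gfm1 at 0.22 (adjusted p = 0.0249). Of 28 assembly factors, 4 were higher (14.3%) and 2 lower (7.14%), with a median of 0.036. Mpv17l2, an inner-membrane protein that binds the large subunit, was at 0.35 (adjusted p = 0.00634) and Wbscr16, an RCC1-like protein, at 0.29 (adjusted p = 0.00977). The GTPase Noa1 was at 0.16 (adjusted p = 0.0480) and the rRNA methyltransferase Mettl15 at 0.39 (adjusted p = 0.0489). Lower were the GTPase Mtg2 at -0.24 (adjusted p = 0.0129) and Ngrn, needed for the stability of the large rRNA, at -0.24 (adjusted p = 0.0193). Calls kept in every alternative were those of Mpv17l2, Wbscr16 and Mtg2. Of 20 mitochondrial tRNA synthetases, 3 were higher and 0 lower (median 0.140), among them Iars2 at 0.41 (adjusted p = 0.00133), kept in every alternative, and Mars2 at 0.42 (adjusted p = 0.0163).

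Of 12 genes of mitochondrial DNA transcription and replication, 2 were higher (16.7%, beside 16.1% of all genes tested) and 0 lower (median 0.086). Polg, the catalytic subunit of the mitochondrial DNA polymerase, had 37.0, 36.4 and 38.4 FPKM with Nfia and 23.1, 23.6 and 24.3 FPKM in controls (log2 difference 0.63, SE 0.042, adjusted p = 0.000291), a call kept in every alternative and a larger difference than that of any mitochondrial ribosomal protein gene. The exonuclease Mgme1 was at 0.23 (adjusted p = 0.0374). Tfam, which packages and transcribes mitochondrial DNA, had 23.1, 21.6 and 18.5 FPKM with Nfia and 20.7, 19.4 and 20.2 FPKM in controls (log2 difference 0.06, SE 0.081, adjusted p = 0.613) and was not called. mRNAs of the mitochondrial genome itself, the templates of the mitoribosome, are not analysed here. None of the 13 symbols searched for them was found among the symbols measured.

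Of 10 tested regulators of mitochondrial biogenesis, 6 were higher (60.0%, beside 16.1% of all genes tested) and 0 lower (median 0.217). Myc, a transcription factor that raises ribosome production, was at 0.68 (adjusted p = 0.000575), Nfe2l2, a regulator of the oxidative stress response, at 0.36 (adjusted p = 0.00590), and the coactivators Pprc1 and Ppargc1a at 0.50 (adjusted p = 0.00695) and 0.49 (adjusted p = 0.00700). Each of these 4 calls was kept in every alternative. The nuclear receptor Esrra was at 0.19 (adjusted p = 0.0215) and the GABP subunit Gabpb2 at 0.25 (adjusted p = 0.0254). Nrf1, Gabpa and Yy1, whose motifs are given above, were not called, at 0.08, 0.11 and 0.03.

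Of 29 import genes, which bring mitoribosome proteins into the organelle, 6 were higher (20.7%) and 1 was lower (3.45%), with a median of 0.121. The shares of all genes tested were 16.1% higher and 15.1% lower. The pore protein Tomm40 was at 0.33 (adjusted p = 0.00265), the matrix chaperone Hspa9 at 0.31 (adjusted p = 0.00447) and the intermembrane chaperone Timm10 at 0.34 (adjusted p = 0.00462). The others higher were Hspd1, Timm8a1 and Timm9, and all of these calls but that of Timm9 were kept in every alternative. Timm22, the carrier channel, was called lower at -0.17 (adjusted p = 0.0377). Of 77 cytosolic ribosomal protein genes tested, 7 were higher (9.09%) and 0 lower, and 75 were above 0 (median 0.150). Those with the smallest adjusted p were Rps2 at 0.26 (adjusted p = 0.0224), Rpl6 at 0.27 (adjusted p = 0.0265) and Rpl13 at 0.21 (adjusted p = 0.0280). The count of cytosolic genes called higher lay between 0 and 35 when 1 library was left out, with 35 without Nfia 3, the Nfia library in which most of these genes were lowest. In the lists above with 0 genes called lower by limma, 0 were lower at an unadjusted p under 0.05, except for 1 tRNA synthetase.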

How the data were processed

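RNA-seq libraries of Nfia-transduced and control mouse neural stem/precursor cells (NS/PCs) were compared, 3 in each group. The deposited values are FPKM, 1 per gene symbol and library, a unit taken from their range and from the tools named because there is no header line. Per the labels' protocols, the authors isolated poly(A) mRNA and made libraries with a directional kit. Per the submitters' processing notes, Cufflinks, Cuffdiff, TopHat, SAMtools, Bowtie (version 1), MACS (version 1.4) and the build mm10 were used, with no role stated. What is not given in the sources used here is the annotation, the tool behind the FPKM values and the use of strand.

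Symbols were matched to the pattern Mrpl or Mrps and a digit. Of 23997 symbols, 4813 were at 0 in all libraries and 12537 had a mean of at least 1 FPKM. Values were taken as log2(FPKM + 1), so differences of low genes are understated, and groups were compared in R version 4.3.3 by limma version 3.58.1 (two-sided, with a variance trend and, before moderation, 4 residual degrees of freedom). P-values were adjusted by Benjamini-Hochberg over all 12537 genes, with a threshold of 0.05. Whole reads could not be recovered, because gene lengths are not known, so no count test was run and no counting interval is given. Relative depth came from genes with a mean under 0.3 FPKM, as the commonest ratio of a library to control 1. Within-library ratios were compared with an exact permutation test, two-sided. The script was tested on simulated data in which changed genes differed by 0.5 or more on the log2 scale, a size that no member reached. That test therefore does not show how well differences as small as those of the members are detected.

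Per subunit, the genes named are every called member up to 8 in a direction, the 3 largest positive and the 3 largest negative differences, the 3 highest and the 2 lowest levels, the Mrps18 relatives, Mrps30 and Mrps36. For each list of related genes they are up to 3 called genes with the smallest adjusted p, and every called gene of a direction with 5 or fewer; 1 such gene is not reported here. Further genes named beside these (divergent or overlapping neighbours, Cldn5, Rgs5, Mrpl30, Mrpl57, Dap3, Tfam, Ppargc1a, Esrra, Gabpb2, Nrf1, Gabpa, Yy1, Hspd1, Timm8a1 and Timm9) were chosen with their values known. The members and lists were chosen with earlier results of these data known. Gene spans and promoters are from RefSeq tables of GRCm38.p6, the assembly that mm10 denotes, matched by symbol. Alternatives were another pseudocount (0.1), no filter or a mean of at least 5 FPKM, 3 scalings, no trend, a robust trend, library quality weights, the replicate number as a block, and each library left out in turn. The ChIP samples are not analysed here.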

Additional observations from a re-analysis of the deposited data

How the results depend on the processing

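The median log2 difference of the 77 mitochondrial ribosomal protein genes was above 0 in all 16 alternatives, at 0.053 to 0.137, and so was that of Mrpl genes (0.027 to 0.134) and Mrps genes (0.062 to 0.137). Of the 432 values of named members under alternatives, 365 kept direction and side of the threshold, 49 lost the call, 18 gained one and 0 reversed. Counts of calls moved more, and the cause was not tested. Leaving out 1 library gave 1311 to 1724 genes called higher (2020 with all) and 1277 to 1620 lower (1898). It gave 2 to 13 members called higher (8) and 0 to 1 lower (1), 0 to 7 Mrpl genes higher (4), 1 to 6 Mrps genes higher (4) and 0 to 1 Mrps genes lower (1). In the lists of related genes it gave 14 to 61 higher (30) and 1 to 3 lower (3). Upper-quartile scaling called 5 members higher and 2 lower, with 1 Mrpl gene higher and 1 lower. Quantile normalization called 2 members lower, 1 of them an Mrpl gene. Library quality weights called 13 members higher and 2 lower, 7 Mrpl genes higher and 1 lower, and 64 related genes higher. Without the filter on low values 0 members, and so 0 Mrps genes, were called lower, and the same held without a variance trend, which called 2 Mrpl genes higher. Apart from the replicate block, given next, the other alternatives moved no count of members by over 1.5 times.

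Whether the replicate numbers of the titles pair the libraries is not known. Deviations of same-numbered Nfia and control libraries correlated at 0.0264, -0.00578 and 0.0461 across genes, all under 0.1. A low correlation across all genes cannot show that the libraries are unpaired. Among the members, library 3 was most often the lowest and library 1 most often the highest in both groups. Summed mural and fibroblast markers were lowest in library 1 of both groups. With the replicate block 2130 genes were called higher and 1916 lower, among them 10 members higher and 2 lower (1 an Mrpl gene) and 52 related genes higher, and the call of Mrpl4 ended. Single libraries did not all correlate best with their own number. Because absolute depth is unknown, the counting error of single values could not be given, and 3 libraries a group limit the detection of differences as small as most of those seen here.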
